A study of Caenorhabditis elegans with 2 samples.

Results

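MicroRNA gene upstream regions of the nematode Caenorhabditis elegans were examined for binding of MDL-1. All 261 nuclear genes annotated as microRNA in Ensembl release 115 (WBcel235) were taken, of 46890 annotated nuclear genes. Each region ran from 1000 bp upstream of the 5′ end of the precursor hairpin to its 3′ end, and the choice used no measured value. The assay was ChIP-seq, in which DNA fragments bound by a protein are precipitated with it and sequenced. The series holds 1 group, whole L1 larvae of both sexes, in 2 biological replicates, so no groups were compared. The animals were of strain OP106, carry unc-119(ed3) on chromosome III and express eGFP-tagged MDL-1 from the integrated transgene wgIs106. The labels give the age as unknown and do not state the promoter of the transgene, and tissues cannot be told apart in whole animals. The authors' optimal list after filtering by irreproducible discovery rate (IDR), which is meant to keep peaks that rank alike in both replicates, held 3870 peaks. It consisted of the highest-scoring peaks of a pooled list of 30000, and single peaks on it can rank far apart in the replicates. Each replicate had a relaxed list of its own, also of 30000 peaks. A peak's position was taken as its summit, and its score is the authors' peak caller's own value, on a scale not given in the sources used here. No list holds read counts, so the depth behind a peak was unknown.

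MDL-1, the worm relative of MAD proteins, has a basic helix-loop-helix and a leucine zipper, pairs with the MAX-like MXL-1 and binds the E-box CACGTG. MicroRNAs are cut from hairpin precursors in longer transcripts and pair with messenger RNAs mostly through the seed, the bases just behind the 5′ end, so microRNAs that share a seed form a family with overlapping targets. In C. elegans they time larval development, act in embryogenesis and set lifespan, and their genes stand alone, in clusters transcribed together, or in introns of host genes.

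The DNA around 6 summits is shown because these peaks, among the highest outside protein-coding promoter windows, include both kinds, with and without an E-box. Each stretch is 101 bases centred on the summit, read on the strand of the microRNA from the RefSeq sequence of WBcel235, with the E-box CACGTG and the hexamer ACGCGT in capitals. The 3 stretches with an E-box belonged to the mir-54 to mir-56 cluster (chrX:13145326-13145426, minus strand), to mir-5595 (chrII:14399734-14399834, minus strand) and to mir-4929 (chrII:13462112-13462212, minus strand). The 3 without one belonged to the mir-229 and mir-64 cluster (chrIII:2172041-2172141, plus strand), to mir-52 (chrIV:14033784-14033884, plus strand) and to mir-53 (chrIV:11027765-11027865, minus strand).
mir-54: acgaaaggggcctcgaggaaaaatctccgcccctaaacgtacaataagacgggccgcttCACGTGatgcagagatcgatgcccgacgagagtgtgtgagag
mir-5595: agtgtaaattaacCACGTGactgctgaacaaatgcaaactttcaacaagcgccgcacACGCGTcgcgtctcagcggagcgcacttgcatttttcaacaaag
mir-4929: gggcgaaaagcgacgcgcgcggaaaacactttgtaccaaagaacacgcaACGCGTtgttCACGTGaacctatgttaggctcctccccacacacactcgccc
mir-229: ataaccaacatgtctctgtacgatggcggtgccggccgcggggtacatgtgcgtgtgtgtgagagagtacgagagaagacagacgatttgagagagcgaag
mir-52: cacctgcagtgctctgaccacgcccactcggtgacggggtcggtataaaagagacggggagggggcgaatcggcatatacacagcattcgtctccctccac
mir-53: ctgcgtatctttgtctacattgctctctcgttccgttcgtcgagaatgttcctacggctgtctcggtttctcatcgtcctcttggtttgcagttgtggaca

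The mature microRNAs below are examples of the families compared by seed. They were read from the same genome at the annotated positions of the mature arms, 5′ to 3′, with the seed (bases 2 to 8) in capitals. The first 6 share the seed of the mir-51 family, the next 4 that of the mir-64 cluster and mir-63, and the next 3 that of mir-238 and the mir-239 pair. The last 3 come from families without an IDR summit in any region.
mir-51 5p: uACCCGUAgcuccuauccauguu
mir-52 5p: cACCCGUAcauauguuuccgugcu
mir-53 5p: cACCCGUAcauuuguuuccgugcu
mir-54 3p: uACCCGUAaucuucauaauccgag
mir-55 3p: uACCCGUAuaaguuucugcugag
mir-56 3p: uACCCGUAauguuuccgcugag
mir-229 5p: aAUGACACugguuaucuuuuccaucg
mir-64 5p: uAUGACACugaagcguuaccgaa
mir-66 5p: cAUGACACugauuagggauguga
mir-63 3p: uAUGACACugaagcgaguuggaaa
mir-238 3p: uUUGUACUccgaugccauucaga
mir-239.1 5p: uUUGUACUacacauagguacugg
mir-239.2 5p: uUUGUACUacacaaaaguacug
let-7 5p: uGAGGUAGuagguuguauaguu
mir-48 5p: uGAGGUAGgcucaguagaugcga
mir-35 3p: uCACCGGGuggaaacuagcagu

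An IDR summit lay in 36 of the 261 microRNA regions, 13.8% (exact Clopper-Pearson 95% interval 9.85 to 18.6%, which covers counting error only), and 225 regions had none. In windows of like length, 1000 bp upstream plus 94 bp, the share was 12.6% at 19973 protein-coding genes. The microRNA share was thus near that of protein-coding genes, whose value lies inside its interval. It was lower than the 38.2% of 612 tRNA genes and the 37.9% of 346 snoRNA genes. Tiles of 1094 bp laid over the genome held an IDR summit in 4.11% of cases, tiles free of protein-coding genes in 4.62% and tiles within protein-coding genes in 2.11%. These values lie below the interval of the microRNA regions. The 36 regions held 32 distinct peaks, because 5 peaks lay in more than 1 region and 3 genes, mir-52, mir-239.1 and mir-239.2, had 2 summits each.

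In the relaxed lists, which reach far below the IDR threshold, the microRNA share was again near that of protein-coding genes and nearer to that of the genome at large. A pooled relaxed summit lay in 41.0% of microRNA regions, beside 39.1% of protein-coding windows, 74% of tRNA windows, 66.2% of snoRNA windows and 28.3% of genome tiles. For replicate 1 the shares of microRNA and protein-coding windows were 42.5% and 40.4%, and for replicate 2 they were 39.5% and 37.9%. A relaxed summit was present in the lists of both replicates at 72 microRNA genes, in at least 1 of the 3 relaxed lists at 147, and in none of them at 114.

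**Figure D1:**
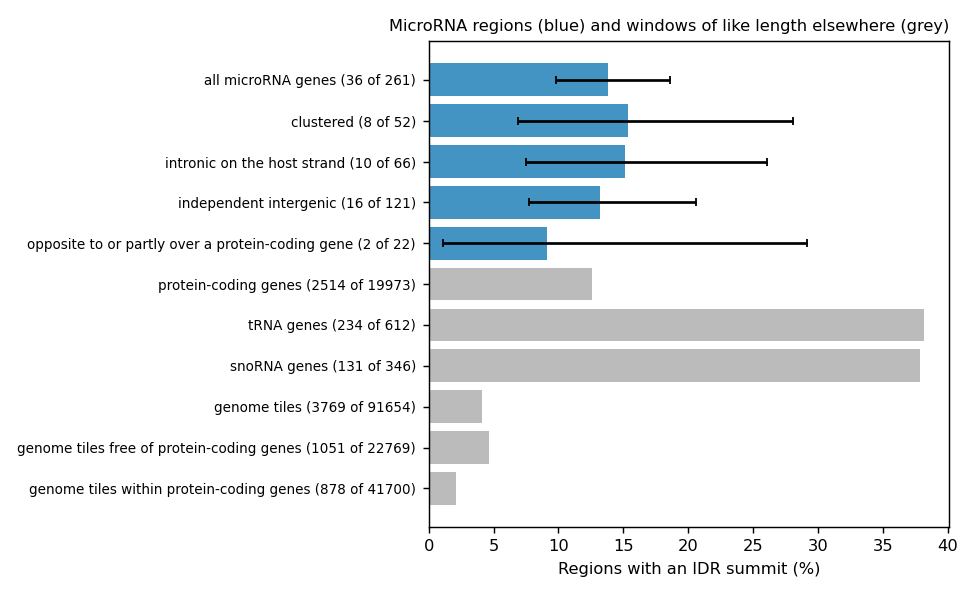
Share of regions with an IDR summit (x axis, percent) for all microRNA genes and their 4 classes (blue, black bars are exact 95% intervals for counting error) and for windows of like length at other genes and in genome tiles (grey). The bar of all microRNA genes, 13.8%, ends close to that of protein-coding genes, 12.6%, and far from those of tRNA genes, 38.2%, and snoRNA genes, 37.9%.

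Summits sat close in front of the hairpins. Over the 32 distinct peaks the median distance from summit to precursor 5′ end was 290.5 bp upstream, with a range from 7 bp inside the precursor to 872 bp upstream. For 28 peaks the summit lay within 500 bp upstream, for 3 it lay farther upstream, and for mir-5549 it lay inside the hairpin. IDR summits lay in the 1000 bp upstream of 35 precursors (13.4%), in the next 1000 bp upstream of 20 (7.66%) and in the 1000 bp downstream of 16 (6.13%). In the pooled relaxed list the shares of these 3 windows were closer, 39.8%, 36.0% and 32.6%, and in replicate 2 they were 37.2%, 34.5% and 33.7%. The 3 bins from 101 to 400 bp upstream were the fullest of 30 bins, with 7, 7 and 8 distinct IDR summits. In the pooled relaxed list the same bins held 22, 25 and 19 summits, beside 5 to 16 in every other bin. Of the 32 summits, 27 were nearer to a microRNA 5′ end than to any protein-coding 5′ end, and 22 lay outside every protein-coding promoter window (1000 bp upstream to 200 bp downstream). Here and below, only the outermost annotated 5′ end of each protein-coding gene was used, so transcript starts inside genes were not checked. By annotation 20 summits were intergenic, 11 intronic and 1 exonic.

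**Figure D2:**
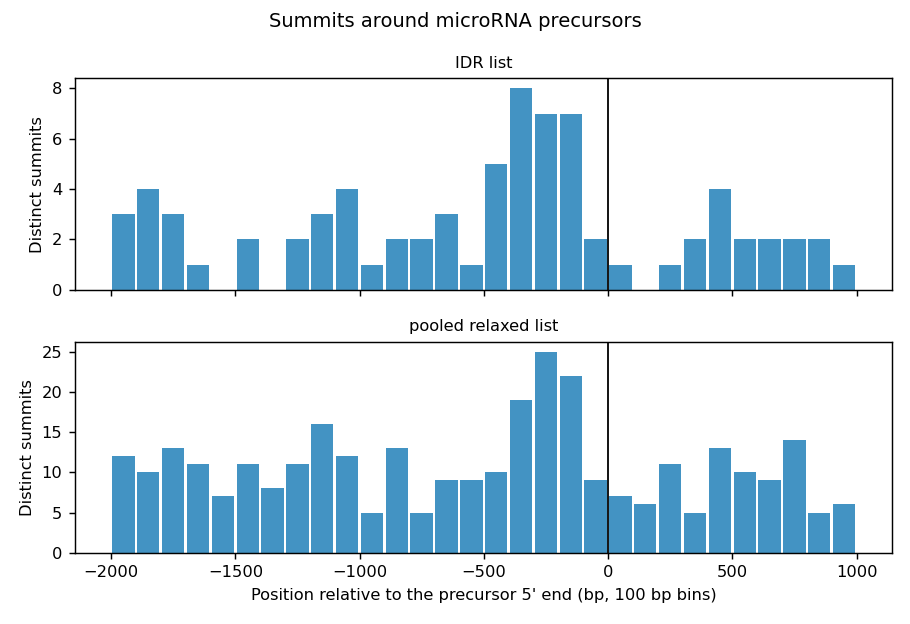
Number of distinct summits (y axis) in 100 bp bins by position relative to the precursor 5′ end (x axis, bp, upstream negative), for the IDR list (top) and the pooled relaxed list (bottom). In both lists the bins between 101 and 400 bp upstream hold the most summits, with 7 to 8 in the IDR list and 19 to 25 in the pooled list.

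The mir-51 family, whose members act together in embryonic development, had an IDR summit at 5 of its 6 genes, beside 13.8% of all microRNA regions. These genes had 4 distinct peaks at 3 places in the genome. The highest-scoring peak of any microRNA region was the one upstream of the cluster of mir-54, mir-55 and mir-56 on chromosome X. Its summit at X:13145376 scored 347 in the pooled list, at rank 43. It scored 223 in replicate 1 (rank 34) and 147 in replicate 2 (rank 41), so both replicates placed it among their highest peaks. The summit lay 282 bp upstream of the mir-54 hairpin (X:13144996-13145094, minus strand), 452 bp upstream of mir-55 and 589 bp upstream of mir-56. The cluster is antisense to an intron of F09A5.3, whose 5′ end was 3775 bp away. The E-box printed for mir-54 thus lies in no protein-coding promoter window as defined here.

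The other members of the mir-51 family had lower scores and no E-box within 50 bp of a summit. At mir-52 a first summit, IV:14033834, scored 100.3 in the pooled list, with 79.9 in replicate 1 (rank 480) and 27.1 in replicate 2 (rank 1804), 174 bp upstream. A second, 471 bp farther upstream, scored 39.2 and was matched within 100 bp in replicate 2 (rank 1199) and not in replicate 1. At mir-53 the summit IV:11027815 scored 84.7, with 54.2 in replicate 1 (rank 953) and 32.1 in replicate 2 (rank 1422), 124 bp upstream. In replicate 2 the second mir-52 peak (35.6) ranked above the first mir-52 peak. The remaining gene, mir-51, lies on the same strand as mir-53, and the mir-53 summit was 1703 bp upstream of its hairpin, outside its region. Within its own region the highest pooled summit was 106 bp upstream with a score of 20.7 (rank 6171, with ranks 6442 and 8414 in the replicates), below the end of the IDR list.

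The mir-64 cluster, with mir-229, mir-64, mir-65 and mir-66 in that order, lies in an intron of gcn-1 on the strand of the host. Its 1 IDR summit, III:2172091, scored 197 in the pooled list, with 126 in replicate 1 (rank 168) and 68.3 in replicate 2 (rank 310). It lay 361 bp upstream of mir-229 and 20146 bp from the 5′ end of gcn-1. The summit was 911 bp upstream of mir-65, just inside its region, and 1017 bp upstream of mir-66, just outside, so that 3 of the 4 genes count as having a summit. The gene mir-63 on chromosome X shares the seed of this cluster and had a low peak of its own, with a score of 33.9, 94 bp upstream. It ranked 5721 in replicate 1 and 2366 in replicate 2.

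Another seed group, mir-238, mir-239.1 and mir-239.2, had IDR summits at 3 of 3 genes, all with lower scores, beside 13.8% of all microRNA regions. Loss of mir-238 or mir-239 is known to alter worm lifespan. The mir-239 genes point away from each other with 1045 bp between their hairpins, and both summits of the pair, 551 bp apart, lie in that shared stretch. The summit nearer mir-239.1 (X:11792130, 315 bp upstream) scored 40.1, with 17.6 in replicate 1 (rank 4325) and 21.9 in replicate 2 (rank 2429). An annotated snoRNA gene, C34E11.20, lay within 200 bp of it. The summit nearer mir-239.2 (X:11791579, 180 bp upstream) scored 39.2 and was matched in replicate 2 (24.8, rank 2050). The nearest summit of replicate 1 (26.2, rank 2760) was 141 bp away, beyond the 100 bp allowed. The mir-238 summit (III:8867572, 147 bp upstream) scored 55.1, with 38.0 in replicate 1 (rank 1678) and 9.40 in replicate 2 (rank 8215). This locus was thus far lower in the order of replicate 2 than in that of replicate 1.

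Grouping the mature arms by seed, after the values had been seen, gave 16 seeds shared by at least 3 genes, which cover 67 genes. Of these groups 7 had an IDR summit at any gene and 9 had none. Besides the 3 groups above, 4 groups had 1 peak each. They held mir-73 and mir-74 among 6 genes, mir-80 among 6, mir-2 among 4 and mir-90 among 3. Genes of a group can share a peak and an ancestral sequence, so the genes are not independent.

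**Figure D3:**
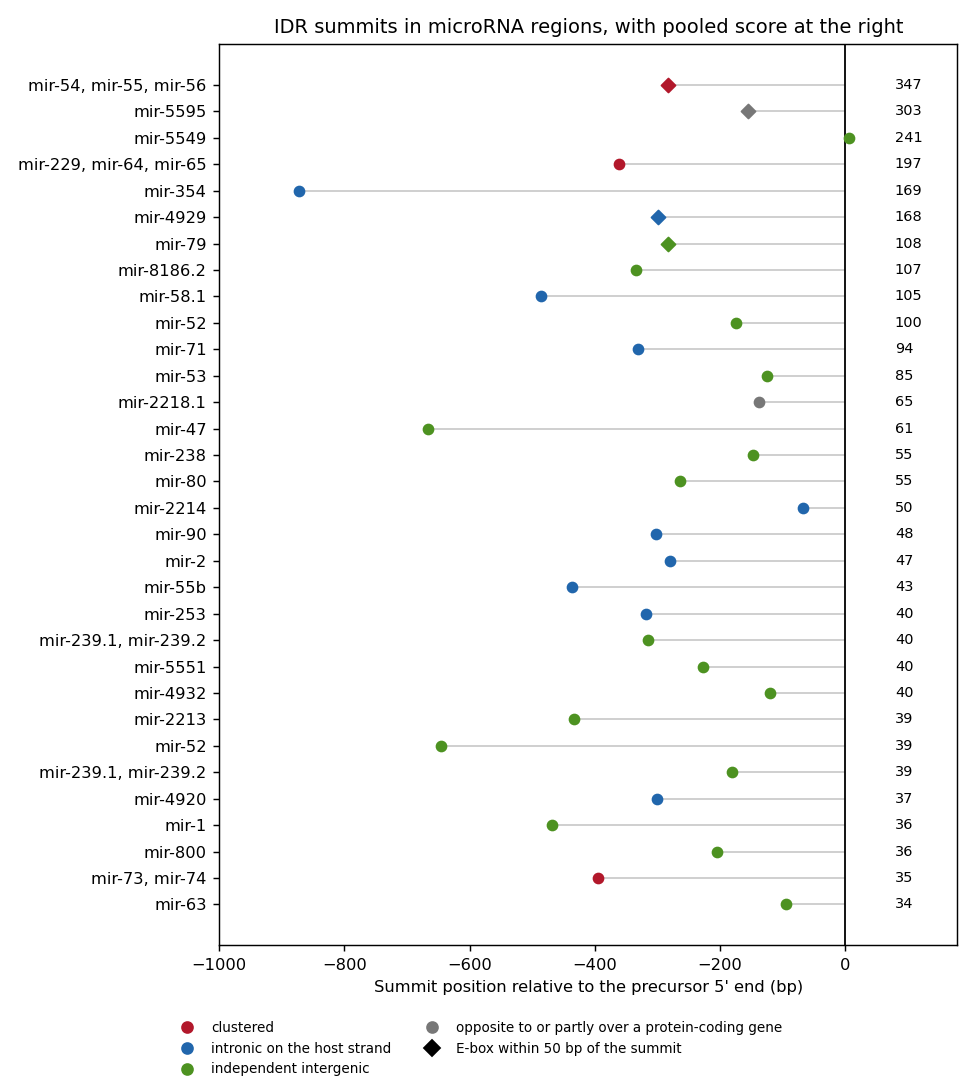
Position of each of the 32 distinct IDR summits relative to the 5′ end of the nearest microRNA precursor (x axis, bp, upstream negative), 1 row per peak in order of pooled score, which stands at the right. Colours mark the class of the gene and diamonds an E-box within 50 bp. The 4 peaks with an E-box are among the 7 highest, and 28 of the 32 summits lie within 500 bp upstream.

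Members of the mir-58 family, abundant microRNAs related to fly bantam, had an IDR summit at 2 of 9 annotated genes. Beside 13.8% of all microRNA regions, this count is not read as a difference. The listed symbol mir-1834 matched no gene symbol of the annotation used. At mir-58.1 the summit IV:3232769, 485 bp upstream, scored 105, with 74.1 in replicate 1 (rank 527) and 27.0 in replicate 2 (rank 1807). It was 10329 bp from the 5′ end of the host Y67D8A.2. The summit at mir-80 (III:8865631, 264 bp upstream) scored 54.9 and was matched in replicate 1 (47.6, rank 1188). In replicate 2 the nearest summit (8.91, rank 9013) was 145 bp from it. On chromosome III the peaks of mir-80, mir-238 and mir-90 stood in a row, 1941 bp and 6814 bp apart, and all 3 genes are on the minus strand. The mir-90 summit lay in an intron of its host K01F9.2, 2742 bp from the host's 5′ end, and scored 48.4 with ranks of 2464 and 2716.

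The list that holds mir-71, a microRNA that promotes long life and is abundant in many tissues, also holds mir-72 to mir-74. It had IDR summits at 3 of 4 genes, beside 13.8% of all microRNA regions. The mir-71 summit lay 330 bp upstream and scored 94.3 in the pooled list, with 48.1 in replicate 1 (rank 1160) and 47.8 in replicate 2 (rank 673). Scores rank peaks within a list only, and by rank the peak stood higher in replicate 2. Both mir-71 and mir-2, a microRNA related to fly miR-2, lie in introns of ppfr-1 on the host strand, with summits 7205 bp apart. The mir-2 summit, 280 bp upstream, scored 47.4, with 23.5 in replicate 1 (rank 3150) and 29.9 in replicate 2 (rank 1557). Their summits were 9632 bp and 16837 bp from the 5′ end of ppfr-1. Each hairpin thus had a separate summit in its region, and the lists cannot tell which gene a peak belongs to. The peak shared by mir-73 and mir-74 scored 34.7, near the end of the IDR list, with ranks of 2812 and 4596. The region of mir-72 had a pooled summit at rank 7870 only.

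Of the 20 conserved single microRNAs listed, 4 had an IDR summit: mir-1, mir-90, mir-239.1 and mir-239.2. Beside 13.8% of all microRNA regions, this share of 20% is not read as a difference. The mir-1 gene, which is expressed in muscle, had a summit 468 bp upstream with a score of 36.5, and ranks of 4805 in replicate 1 and 2767 in replicate 2. Further single genes with higher scores were not on any list. The mir-79 gene, which acts in the epidermis, had a summit 283 bp upstream with a score of 108 and an E-box within 50 bp, and its ranks of 750 and 754 hardly differed. The mir-47 summit lay 666 bp upstream and scored 61.3, with ranks of 2217 and 1612.

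Several high-scoring peaks lay beside protein-coding 5′ ends as well. The mir-5549 summit (III:6972078, score 241, ranks 122 and 145) was 7 bp inside the hairpin and 175 bp from the 5′ end of rfc-4, a replication factor C subunit. The mir-354 summit (score 169, ranks 202 and 522) was 872 bp from the hairpin, 137 bp from the 5′ end of ekl-4 and 260 bp from that of the host rps-20, a ribosomal protein gene. At mir-8186.2 the summit (score 107, ranks 715 and 645) was 334 bp upstream of the hairpin and 507 bp from the 5′ end of gmeb-1. By contrast, the mir-5595 summit (II:14399784, 155 bp upstream, score 303, ranks 48 and 95) was 8828 bp from the nearest outermost 5′ end of a protein-coding gene. It lies opposite to nurf-1, a gene for a chromatin remodelling subunit, within an intron. The mir-4929 summit (II:13462162, 298 bp upstream, score 168, ranks 213 and 552) was 7440 bp from the 5′ end of its host E01G4.3. It was 1520 bp from the nearest protein-coding 5′ end, that of pqn-27, and in no promoter window. Leaving out summits in protein-coding promoter windows, a choice made after seeing the data, left 26 of the 36 microRNA regions with a summit. The lists cannot tell which of 2 neighbouring genes a peak belongs to. Lower peaks beside a protein-coding 5′ end were those of mir-2218.1 (score 65.5, 137 bp upstream, 191 bp from maea-1), mir-5551 (score 40.0, 227 bp upstream, 360 bp from nhr-97) and mir-2213 (score 39.3, 433 bp upstream, 307 bp from panl-2). Those of mir-4932 (score 39.9, 120 bp upstream), mir-4920 (score 37.5, 301 bp upstream) and mir-800 (score 35.5, 205 bp upstream) were 49 bp from smn-1, 215 bp from sph-1 and 591 bp from R04A9.3.

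The classes of microRNA genes differed little in how often they had an IDR summit. Clustered precursors, with another precursor on the same strand at 1000 bp or less, had one at 8 of 52 genes (15.4%, exact interval 6.88 to 28.1%). Single precursors within a protein-coding gene of the same strand had one at 10 of 66 (15.2%, 7.51 to 26.1%), and 5 of these 66 overlap an exon of that gene. Independent intergenic genes had one at 16 of 121 (13.2%, 7.75 to 20.6%). The remaining precursors, opposite to or partly over a gene, had one at 2 of 22 (9.09%, 1.12 to 29.2%). All 4 intervals overlap, and the 8 clustered genes rest on 3 peaks in 3 of 18 clusters. Of the clusters, those of mir-54, mir-229 and mir-73 had a peak, whereas the 7 genes from mir-35 to mir-41 had none.

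For precursors on the strand of a host gene, clustered or not, 11 distinct peaks were found. The summit was more than 1000 bp from the host's 5′ end for 8 of them and within 1000 bp for 3, those of mir-354, mir-253 and mir-4920. The median distance to the host's 5′ end was 2793 bp. At mir-253 the summit (score 40.3) was 318 bp upstream of the hairpin and 12 bp from the 5′ end of F44E7.5, and it ranked 3163 in replicate 1. The nearest summit of replicate 2, rank 2695, was 112 bp away, just over the 100 bp allowed. The mir-2214 summit lay 67 bp upstream of the hairpin and 1049 bp from the 5′ end of the host B0361.11, with a score of 49.7 and ranks of 2878 and 2577. The mir-55b gene, annotated antisense to mir-55 and on the strand of F09A5.3, had a summit 436 bp upstream with a score of 43.4. That summit was 982 bp from the much higher one of the mir-54 cluster and ranked 1261 in replicate 1 and 5976 in replicate 2.

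Scores of the microRNA peaks spread over the whole IDR list. Their median was 52.3 (range 33.9 to 347), beside a median of 58.8 for the 3870 IDR peaks (range 32.7 to 680). Split by score into 4 equal parts, the IDR list held 11, 3, 6 and 12 of the 32 peaks from the highest to the lowest part. The median score was 40.1 for the 17 peaks at independent intergenic genes and 49.0 for the 10 at single host-strand genes. By chromosome, 9 of 27 genes on III had a summit, 7 of 33 on I, 11 of 74 on X, 5 of 50 on IV, 3 of 49 on II and 1 of 28 on V. The X share, 14.9%, was close to the 13.4% of the autosomes together. Base composition moved with the result. The median GC content was 40.7% over the 36 regions with an IDR summit (range 32.0 to 53.5%) and 36.6% over the 225 without (range 26.1 to 59.6%), and its part in the result was not tested.

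Both replicates had a relaxed summit within 100 bp at 28 of the 32 microRNA peaks (87.5%), beside 94.5% of all IDR peaks. Within 50 bp 19 were matched in both, and within 200 bp 31. At 100 bp the mir-80 and mir-253 peaks were matched in replicate 1 alone, and the second mir-52 peak and the one nearest mir-239.2 in replicate 2 alone. In the other replicate the nearest summit was 112 to 145 bp away for mir-80, mir-253 and mir-239.2 and 407 bp away for the second mir-52 peak. Among the matched peaks the median rank was 1469.5 in replicate 1 (range 34 to 5814) and 1835 in replicate 2 (range 41 to 14095). Of the 32 peaks, 24 were among the 3870 highest of replicate 1, 25 among those of replicate 2 and 17 among those of both. The larger of the replicate ranks divided by the smaller had a median of 1.85 over the 11 matched peaks of pooled rank up to 1000 (range 1.01 to 3.76). Over the 17 lower ones it was 1.78 (range 1.10 to 4.90), so the replicates lay about as far apart in both. By this ratio the ranks were furthest apart for mir-238 (1678 and 8215), and by difference for mir-4920 (3110 and 14095).

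**Figure D4:**
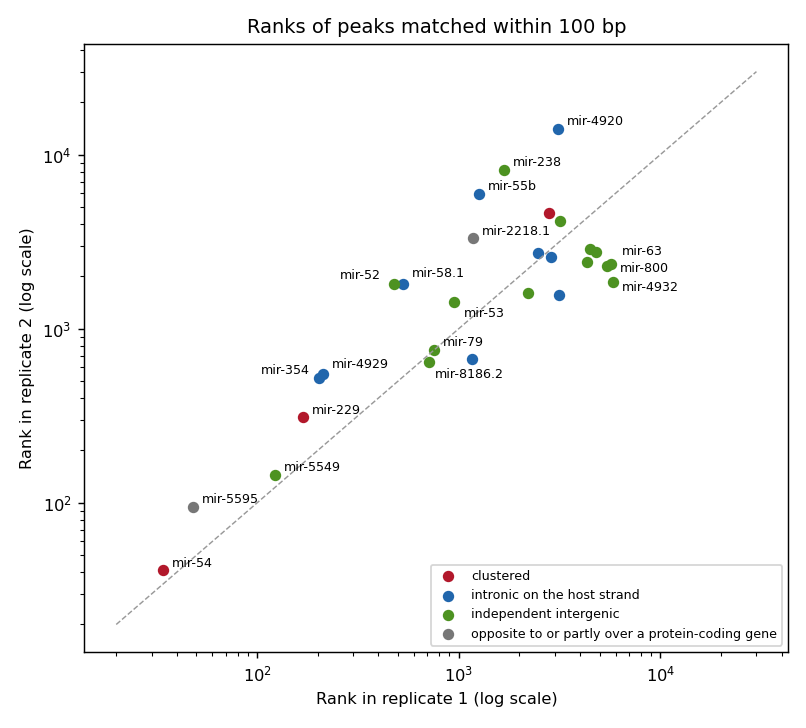
Rank of the 28 matched microRNA peaks in replicate 1 (x axis, log scale) against replicate 2 (y axis, log scale), coloured by class. The dashed line marks equal ranks, and names are given where the replicate 1 rank is under 1000 or the ranks lie far apart. The mir-54 peak has ranks of 34 and 41, while mir-4920 (3110 and 14095) and mir-238 (1678 and 8215) lie far above the line.

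An E-box CACGTG lay within 50 bp of 4 of the 32 microRNA summits (12.5%, exact interval 3.51 to 29.0%), those of mir-54, mir-5595, mir-4929 and mir-79. The share over all IDR summits was 13.2%. Among control windows centred 500 bp to the left and right of the summits, 0 of 64 microRNA windows held an E-box. Around all IDR peaks 1.94% of such windows did. For 0 of 64 an approximate upper limit, 3 divided by 64, is 4.69%, which is not an exact interval. CACGTG reads the same on both strands. The hexamer ACGCGT, also its own reverse complement, lay at 2 summits, mir-5595 and mir-4929, both with an E-box as well (6.25%, beside 3.28% of all IDR summits). TGCGCA was found at 2 summits (6.25%, beside 4.11%) and CAGCTG at 1 (3.13%, beside 3.70%). Of 62 CACGTG sites in microRNA regions, 5 (8.06%) had an IDR summit within 50 bp, beside 3.12% of the 17729 sites in the genome. These shares are not like for like, because the genome sites are not limited to windows upstream of genes. IDR summits lay in 4.11% of genome tiles, beside 13.8% of microRNA regions. At least 1 site was present in 58 of the 261 regions (22.2%), beside 16.7% of protein-coding windows, so most microRNA regions with an E-box had no IDR summit near it. A match of letters is a description and shows no binding.

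The let-7, lin-4 and mir-35 families had no IDR summit, like 225 of all 261 microRNA regions. A pooled relaxed summit lay at 4 of 7 let-7 family genes, beside 41.0% of all microRNA regions. The lin-4 family had one at 0 of 2 genes and the mir-35 family at 1 of 8. In the let-7 family, whose members let-7, mir-48, mir-84 and mir-241 drive later larval transitions, 0 of 7 genes had an IDR summit. The let-7 region had a pooled summit 442 bp upstream at rank 11930, with ranks of 10308 and 23868 in the replicates. The mir-241 region had one at pooled rank 11455, that of mir-795 at 14670 and that of mir-84 at 21175, while mir-48 had a summit in none of the lists. The lin-4 gene, which ends the first larval programme by repressing lin-14, had a summit in replicate 1 alone, at rank 8760. The mir-35 family, needed in the embryo, had 0 of 8 genes with an IDR summit, and mir-35 to mir-38 had none in any list. The mir-42 region had a pooled summit at rank 8910, with ranks of 4301 and 12571 in the replicates. Beside the 12.6% of protein-coding windows, a count of 0 among 7 or 8 genes is not read as a difference.

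Other listed genes fell below the threshold too. The mir-44 family had 0 of 4 genes with an IDR summit, and the mir-2 family 1 of 4. Beside 13.8% of all microRNA regions, such small counts are not read as a difference. Of the neuronal genes, lsy-6, which sets the left taste neuron's fate, had no summit in any list, and mir-273 had one at pooled rank 25790. Among conserved single genes, mir-86 had a pooled summit at rank 4905 (ranks 15478 and 3777 in the replicates), mir-60 at 5695 (5343 and 20977) and mir-83 at 6935 (4250 and none). All 70 listed genes together had an IDR summit at 18 (25.7%, exact interval 16.0 to 37.6%). The 191 genes on no list had one at 18 as well (9.42%, 5.68 to 14.5%). The lists were drawn up with results of these data known, so this difference is given as a description.

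**Figure D5:**
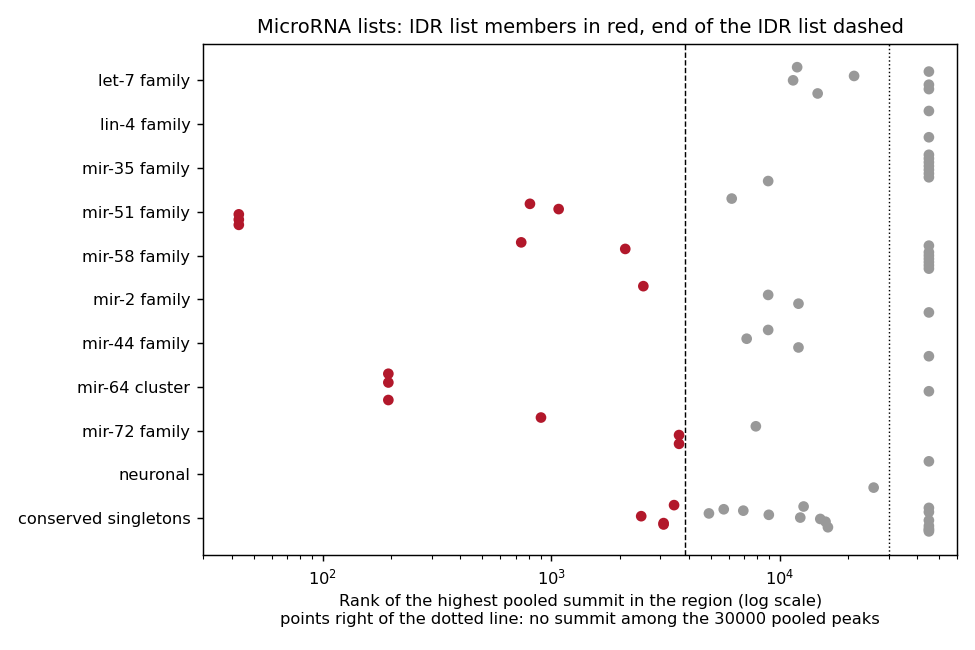
Rank of the highest pooled summit in the region of each listed gene (x axis, log scale), 1 row per list. Red points have an IDR summit, the dashed line marks the end of the IDR list at 3870, and points right of the dotted line had no summit among the 30000 pooled peaks. The mir-51 family has 5 of 6 genes left of the dashed line, the let-7 family 0 of 7 and the mir-35 family 0 of 8.

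Some microRNA genes had an IDR summit just beyond the 1000 bp limit. Between 1001 and 2000 bp upstream, 15 genes without a summit in the region had one. The nearest were mir-66 at 1017 bp, mir-353 at 1020 bp (score 124) and mir-392 at 1033 bp (score 93.8). The farthest-placed members inside the limit were mir-65 at 911 bp and mir-354 at 872 bp. The highest score among these outer summits was 206, at 1833 bp upstream of mir-34, a microRNA of the DNA damage response, which in its own region had a pooled summit at rank 12733.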

How the data were processed

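Peaks were analysed from 2 biological replicates of 1 group. Relaxed peaks were called per replicate and on both pooled, and an IDR list was made from them, per the deposited file inventories. The aligner and the peak caller were not given in the sources used here. Each score in the deposited lists is the authors' caller's value, and it was used to rank peaks within a list, with no mean or SD. Summits in ce11 (WBcel235) were set against Ensembl release 115 genes, with symbols from RefSeq (261 of 261 matched). For 7 genes with a longer annotated primary transcript the hairpin was used. Alignments, the control, the lists in ce10 and the file inventories' other entries were not used here. Intervals are exact Clopper-Pearson 95% intervals from SciPy 1.17.1 that allow for counting error alone. They treat genes or peaks as separate, although genes can share a peak. Depth was unknown. Genes and peaks are not replicates, so no test was run.

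Named genes were the 25 with the highest-scoring IDR summit matched in both replicates within 100 bp, and every member of the lists. The members and lists were chosen with earlier results of these data known. The genes mir-253, mir-63, mir-353, mir-392, mir-2213, mir-4920, mir-4932, mir-5551 and mir-800 were named after their values were seen, as were the seed groups. The mature sequences shown are examples, and 1 is not reported here. Lookup of summits in regions was checked on planted summits. Alternatives covered other window lengths, peak sets, cluster gaps, motif windows and each replicate alone.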

Additional observations from a re-analysis of the deposited data

How the results depend on the processing

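Of 46 alternative values over 7 results, 38 stayed within 1.5 times the reported count or within its interval. The count of microRNA regions with an IDR summit, 36 as reported, was 18 with the highest-scoring 0.5 of the IDR list and 55 with the pooled list to 2 times the IDR length. All 18 were among the 36, and all 36 among the 55. With these same lists independent intergenic genes, 16 as reported, gave 6 and 28, and with the shorter list host-strand genes, 10 as reported, gave 4. Clustered genes, 8 as reported, gave 4 with 500 bp upstream and 14 of 81 with a cluster gap of 10000 bp. The median distance, 290.5 bp, was 433 bp with 2000 bp upstream, because that window reaches farther. Using the highest 3870 peaks of 1 replicate alone gave 32 to 35 regions, 8 clustered genes, 10 to 11 host-strand genes, 11 to 15 independent intergenic genes, an E-box share of 9.68 to 14.8% and a median distance of 284 to 301 bp. Regions with a summit under both replicates alone numbered 24, all among the 36. The E-box share ran from 6.25% within 25 bp to 15.6% within 100 bp, and was 28.6% of 14 peaks in the shorter list and 10% of 50 in the longer one. Counting each cluster once gave 31 of 227 loci. Using the annotated gene span or leaving out promoter summits was chosen after seeing the data and gave 36 and 26 regions. No paired analysis was possible because the series has 1 group. A region without a summit is one below the end of a list, and the unknown depth does not allow binding there to be called absent.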

Other observations

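The runs CTCTCT and GAGAGA, read on the plus strand of the genome, were counted around summits after the sequences had been seen. They are not reverse complements of each other. Either run lay within 50 bp of 9 of the 32 microRNA summits (28.1%, exact interval 13.7 to 46.7%), beside 26.6% of all IDR summits. In windows moved by 500 bp either run lay in 0 of 64 at microRNA peaks and in 4.91% around all IDR peaks. The approximate upper limit for 0 of 64 is again 4.69%, just below 4.91%. That limit is not an exact interval, and the difference was not tested. Among the microRNA peaks either run was found at those of mir-229, mir-8186.2, mir-53, mir-238, mir-253, mir-5551, mir-1 and mir-800. The second mir-52 peak had one too, and none of the 4 peaks with an E-box did.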
